A study of Homo sapiens with 6 samples.

Results

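The cadherins and protocadherins were examined in Hep3B cells, a human hepatocellular carcinoma (HCC) line, in libraries labelled as control or as knockout of the transcription factor RFX6. Members were all rows of the deposited count table whose name starts with CDH followed by a digit or with PCDH, which gave 78 of 16720 named rows. Of these, 28 were solitary genes and 50 belonged to the clustered protocadherins (12 PCDHA, 16 PCDHB and 22 PCDHG genes). RNA was sequenced in 3 libraries labelled sgControl, with wild-type RFX6, and 3 libraries labelled sgRFX6, in which a guide RNA against RFX6 had been used for knockout. Both groups were cultured Hep3B cells with no other treatment named in the labels. Per the study's methods, guides were delivered in the lentiCRISPRv2 vector, infected cells were selected with puromycin, and lines were grown from single cells. The labels do not say whether the libraries of a group came from separate cultures or clones, so p-values measure only the spread between these libraries, and a trait of a clone and the loss of RFX6 cannot be told apart. The control columns of the table name no guide and were taken as the sgControl samples, the only control group. All columns taken as sgRFX6 carry the same name, sg3, which is that of an RFX6 guide in the study's methods. An effect of that guide outside RFX6 therefore also cannot be told apart from the loss of RFX6.

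Cadherins are calcium-dependent adhesion proteins of the cell surface. Classical cadherins such as CDH1 (E-cadherin) and CDH2 (N-cadherin) bind their like on the next cell and are tied to actin through catenins, and hepatocytes carry both. Clustered protocadherins lie in tandem arrays on chromosome 5 in the order alpha, beta and gamma. Each variable exon has its own promoter, and a cell uses only a subset of them, which is best known as a source of identity in neurons. In the alpha and gamma arrays a variable exon is spliced to constant exons that all genes of the array share, whereas PCDHB genes are single-exon genes without them.

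The promoters of the PCDHB genes are shown first, since the lowest log2 fold changes of the family were found among these genes. RefSeq promoters (GRCh38.p14, 250 bases before to 50 after each start) were matched for 62 of the 78 members, among them 14 PCDHB, 20 PCDHG, 11 PCDHA and 17 solitary genes. Many protocadherin promoters are known to share a conserved element with the core CGCT. The word GTGGCGCT was taken as the form common to PCDHB promoters. It is set in capitals below within 42 bases of the plus strand, 5′ to 3′. The 8 tested PCDHB genes with a matched promoter are shown.
PCDHB2 (chr5:141094536-141094577): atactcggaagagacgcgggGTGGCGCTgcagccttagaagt
PCDHB5 (chr5:141135171-141135212): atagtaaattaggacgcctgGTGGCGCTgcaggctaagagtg
PCDHB7 (chr5:141172558-141172599): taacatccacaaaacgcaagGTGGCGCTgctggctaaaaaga
PCDHB8 (chr5:141177769-141177810): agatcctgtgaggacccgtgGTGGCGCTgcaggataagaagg
PCDHB16 (chr5:141182302-141182343): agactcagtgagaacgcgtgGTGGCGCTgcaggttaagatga
PCDHB13 (chr5:141213857-141213898): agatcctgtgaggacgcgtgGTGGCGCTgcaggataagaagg
PCDHB14 (chr5:141223255-141223296): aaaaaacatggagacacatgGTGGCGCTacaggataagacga
PCDHB15 (chr5:141245306-141245347): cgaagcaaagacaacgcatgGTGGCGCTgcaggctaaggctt
The word was searched on both strands. It was present in 13 of 14 PCDHB promoters, in none of the 11 PCDHA, 20 PCDHG and 17 solitary promoters, and in 322 of 27305 promoters in all (1.18%). The word was chosen from these same PCDHB promoters, so its share among them is a description and lends no support. In PCDHB promoters the word began between 1 and 83 bases before the start site. The exception was PCDHB1, which lies apart from the others at the start of the array and differed by C5T, counted from 1 at the 5′ end of the word.
PCDHB1 (chr5:141051329-141051370): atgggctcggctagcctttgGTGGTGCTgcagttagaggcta
In PCDHG promoters the corresponding word was GCCGCTGT, again on either strand, which was present in 11 of 20 PCDHG promoters (55%), in 1 solitary promoter (CDH2) and in 438 of 27305 promoters (1.6%). The same limit holds for this word. It is shown for the PCDHG gene with the highest level, a gene that fell and a gene that did not pass the test.
PCDHGC3 (chr5:141475874-141475915): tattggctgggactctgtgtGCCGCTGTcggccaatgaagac
PCDHGB1 (chr5:141350019-141350060): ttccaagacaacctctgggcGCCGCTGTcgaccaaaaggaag
PCDHGA10 (chr5:141412925-141412966): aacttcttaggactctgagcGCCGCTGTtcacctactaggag
A pattern of 14 letters taken for the X-box, the type of site that RFX factors are known to bind, was searched on both strands. It was present in 1 of 62 member promoters (PCDHB1) and in 217 of 27305 promoters (0.795%). The pattern was not palindromic, since 168 promoters matched on the gene's own strand and a palindrome matches alike on both. Other forms of the X-box were not searched, so their absence cannot be read from these counts. A match is a description of the letters and not a bound site, and the windows cover 300 bases only.

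Libraries held between 16730374 and 25070770 counts. Levels are given as CPM, each gene's count as a part of the library total rescaled to 1e6 and scaled by TMM, edgeR's correction for library composition, and 3 counts corresponded to between 0.122 and 0.189 CPM. RFX6 (chr6:116877212-116932163) was at 5.64, 5.83 and 7.34 CPM in sgControl and at 3.43, 3.71 and 3.50 CPM in sgRFX6. The groups did not overlap, but the log2 fold change of -0.82 (SE 0.26) did not pass edgeR's quasi-likelihood test after Benjamini-Hochberg adjustment over all genes (adjusted p = 0.142). Whether the RFX6 protein was lost cannot be read from these counts.

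Some libraries and markers stood apart. Within sgControl, replicate 2 was high for the intestinal epithelial marker LGALS4 (967 CPM against 363 and 384) and for CDX2 (58.3 against 19.7 and 19.4). Within sgRFX6, the difference of replicate 3 from replicates 1 and 2 followed the GC content of genes, with Spearman's rho across genes of -0.83 and -0.82. For sgRFX6 replicate 2 minus 1 it was 0.30. Pairs of sgControl libraries showed GC trends as well, with rho of 0.49 (2 minus 1), 0.53 (3 minus 1) and -0.27 (3 minus 2). Of the 9 hepatocyte markers, all were tested and their summed level ran from 259 to 305 CPM in sgControl and from 204 to 220 CPM in sgRFX6. Of these, AFP was called higher and FGB lower, while ALB was at 12.9 to 32.1 CPM over all libraries and TTR at no more than 0.88 CPM. The 4 intestinal epithelial markers in the table summed to between 733 and 1590 CPM in sgControl and between 750 and 1143 CPM in sgRFX6, with FABP1 at no more than 0.454 CPM. Of 6 fibroblast markers, 4 were tested and COL1A1 and COL1A2 were called lower, with sums of 24.7 to 33.3 and 21.3 to 56.2 CPM. Endothelial markers (2 of 6 tested, none called) summed to between 33.0 and 33.9 CPM in sgControl and between 43.3 and 66.2 CPM in sgRFX6, with KDR at no more than 0.0628 CPM. The 5 leukocyte markers (4 tested, none called) summed to between 1.83 and 3.89 CPM and between 3.77 and 4.09 CPM, with CD3E at no more than 0.0454 CPM. The 5 neural markers in the table (4 tested, none called) summed to between 122 and 201 CPM and between 153 and 206 CPM, mostly TUBB3, with SNAP25 at no more than 0.13 CPM. The part of these markers in the results below was not tested. In bulk RNA, fewer cells of a type and less RNA per cell cannot be told apart.

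Cadherins and protocadherins that were called were lower in sgRFX6, and nearly all were clustered protocadherins. A low-count filter left 33 of the 78 members (10 solitary, 2 PCDHA, 10 PCDHB and 11 PCDHG genes) among 12839 genes tested. Of these 33, 11 were called lower and 0 higher at an edgeR adjusted p under 0.05, where 3.74% of all genes tested were called, 1.81% lower and 1.92% higher. The 11 were the solitary gene PCDH7, 7 PCDHB genes (PCDHB2, PCDHB5, PCDHB6, PCDHB7, PCDHB8, PCDHB13 and PCDHB16) and 3 PCDHG genes (PCDHGB1, PCDHGA4 and PCDHGB3). At an unadjusted p under 0.05, 24 of the 33 passed, beside 15.6% of all genes. The median log2 fold change was -1.32 over the 23 tested clustered genes, 0.01 over the 10 tested solitary genes and 0.02 over all genes. All 3 libraries of sgRFX6 lay below all 3 of sgControl for 22 of the 33 members (11.2% of all genes) and above them for 2 (12% of all genes). Of the 33, 8 clustered genes reached the low-count filter in all libraries of sgControl only, among them the called PCDHB7, PCDHB13, PCDHB16, PCDHGA4 and PCDHGB3. PCDHA5 did so in sgRFX6 only. The tallies and medians over tested members are therefore a description and lend no support to a direction. PCDH7, PCDHB5, PCDHB7, PCDHB8, PCDHB13 and PCDHB16 were still called with any 1 library left out. Without sgControl replicate 2 there were 10 calls (8 lower, 2 higher), and without sgRFX6 replicate 3 there were 10, all lower. The count was 6 without sgControl replicate 3, sgRFX6 replicate 1 or sgRFX6 replicate 2 and 7 without sgControl replicate 1, again all lower.

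**Figure D1:**
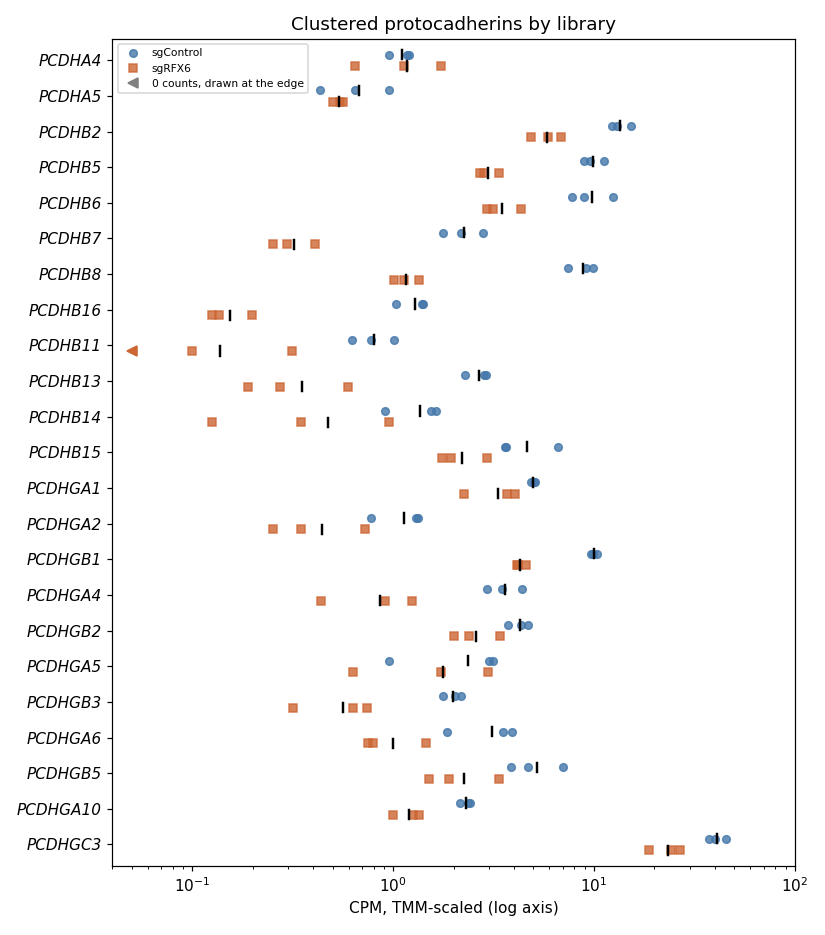
TMM-scaled CPM (log axis) of the 23 tested clustered protocadherins in each library, with circles for sgControl, squares for sgRFX6 and a black tick at each group mean, and with the 1 library at 0 counts drawn as a triangle at the edge. The groups are separate for 9 of 10 PCDHB and 10 of 11 PCDHG genes, all lower in sgRFX6, and overlap for both PCDHA genes. Of all genes tested, 11.2% were lower without overlap. Since 5 of the PCDHB and 3 of the PCDHG genes reached the low-count filter in all libraries of sgControl only, the tally is a description.

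The 5 lowest log2 fold changes of the family were those of PCDHB genes. The log2 fold change was below 0 for all 10 tested genes (median -2.19), and 7 were called. Of these 10, PCDHB7, PCDHB11, PCDHB13, PCDHB14 and PCDHB16 reached the low-count filter in all libraries of sgControl only, so that the sign count and the median over tested genes are a description and lend no support to a direction. PCDHB8 (chr5:141177790-141180529), whose promoter carries the word at the start site, was at 9.88, 9.11 and 7.43 CPM in sgControl and at 1.34, 1.01 and 1.14 CPM in sgRFX6. The sgRFX6 libraries lay well below the controls, and the mean fell 7.59-fold (log2 fold change -2.91, SE 0.29, edgeR adjusted p = 0.0015). The exact permutation test of single genes, two-sided, gave 0.1 for this and every other gene without overlap, which is the smallest p that 3 against 3 libraries allow. The promoter of PCDHB8 is printed whole (chr5:141177540-141177839, plus strand), with the same word in capitals.
PCDHB8: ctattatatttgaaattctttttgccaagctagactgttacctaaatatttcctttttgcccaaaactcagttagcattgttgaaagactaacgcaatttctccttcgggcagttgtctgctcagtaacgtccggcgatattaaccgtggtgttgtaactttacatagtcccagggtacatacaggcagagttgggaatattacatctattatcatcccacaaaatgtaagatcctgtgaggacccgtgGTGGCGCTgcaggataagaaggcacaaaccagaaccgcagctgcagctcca
The promoter of PCDHB13 was its near copy, with 243 of 259 aligned bases identical (93.8%). The transcripts are also alike, since 38.6% of the 75-base windows of PCDHB8 occur in another gene, most often PCDHB13, so the split of reads between them is uncertain.

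PCDHB13 (chr5:141213919-141218979) was at 2.84, 2.92 and 2.29 CPM in sgControl and at 0.596, 0.189 and 0.273 CPM in sgRFX6 (log2 fold change -2.89, SE 0.45, edgeR adjusted p = 0.00999). PCDHB7 (chr5:141172619-141176383) fell from 2.17, 2.79 and 1.77 CPM to 0.298, 0.251 and 0.409 CPM (log2 fold change -2.77, SE 0.40, edgeR adjusted p = 0.00743). PCDHB16 (chr5:141181399-141186399) fell from 29, 35 and 24 counts to 4, 2 and 3 counts (log2 fold change -3.01, SE 0.44, edgeR adjusted p = 0.00805). These 3 genes were low in every library, and in sgRFX6 their counts reached 12 at most. PCDHB11 lies between them on the chromosome and had 13, 25 and 18 counts against 2, 5 and 0, with a log2 fold change of -2.64 (SE 0.77) that did not pass the test (adjusted p = 0.114).

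At the start of the array, PCDHB2, PCDHB5 and PCDHB6 fell with smaller log2 fold changes, a difference between genes that was not tested. PCDHB2 (chr5:141094578-141098703), the first tested gene of the array, fell from 316, 303 and 301 counts to 138, 77 and 130 counts (log2 fold change -1.20, SE 0.25, edgeR adjusted p = 0.0305). PCDHB5 (chr5:141135218-141138625) fell from 11.3, 8.95 and 9.54 CPM to 2.83, 2.70 and 3.36 CPM (log2 fold change -1.74, SE 0.25, edgeR adjusted p = 0.00788). PCDHB6 (chr5:141150022-141153287) fell from 8.96, 12.5 and 7.77 CPM to 4.32, 3.14 and 2.95 CPM (log2 fold change -1.49, SE 0.30, edgeR adjusted p = 0.028). None of these groups overlapped, yet the calls of PCDHB2 and PCDHB6 were near the threshold. With sgControl replicate 1 left out the adjusted p of PCDHB2 was 0.128 and that of PCDHB6 0.0671, and PCDHB2 kept its call only without sgControl replicate 2 or sgRFX6 replicate 3, and PCDHB6 only without sgRFX6 replicate 3. At the far end of the array, PCDHB14 (-1.45, adjusted p = 0.286, groups overlapping) and PCDHB15 (-1.06, adjusted p = 0.181) did not pass. The 6 PCDHB genes that failed the filter together held 36, 57 and 32 counts in the controls and 9, 5 and 16 in the knockout libraries.

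Summed over all 16 genes, PCDHB was at 59.4, 61.4 and 49.5 CPM in sgControl and at 20.3, 14.8 and 17.8 CPM in sgRFX6, so that 31.0% of the control mean was left. With any 1 library left out, the share left ran from 28.7% to 33.5%. The makeup of the PCDHB counts differed too. PCDHB8 took 14.8% to 16.6% of them in sgControl and 6.38% to 6.81% in sgRFX6, and PCDHB2 took 19.97% to 26.2% and 32.8% to 33.8%. PCDHB5 took 14.6% to 19.3% and 13.97% to 18.9%, with overlapping groups. These shares are descriptions without a test.

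**Figure D2:**
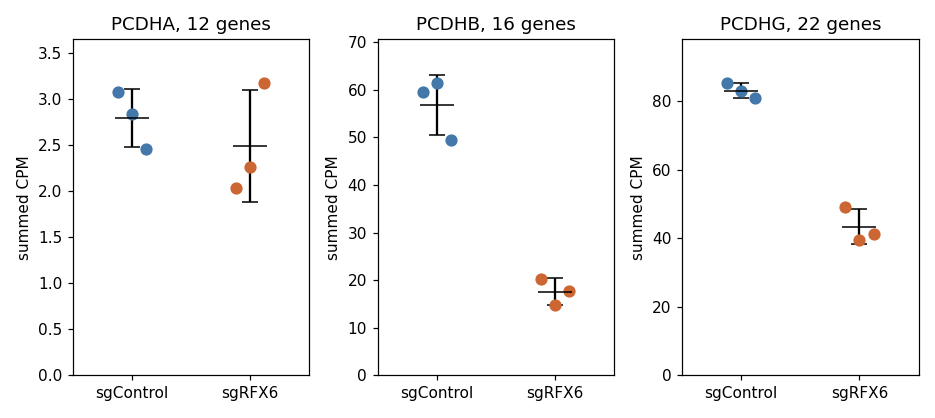
Summed TMM-scaled CPM of all PCDHA, PCDHB and PCDHG genes in each library (points), with a horizontal line at the group mean and bars of 1 SD. PCDHB and PCDHG sums are lower in all 3 sgRFX6 libraries, at 31.0% and 52.2% of the control mean, and PCDHA sums overlap.

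Among PCDHG genes 3 of 11 tested were called, all lower. The log2 fold change was below 0 for all 11 (median -1.19), where 47.3% of all genes tested were negative, but PCDHGA2, PCDHGA4 and PCDHGB3 reached the filter in all libraries of sgControl only, and the tally is again a description. Whether PCDHG and PCDHB genes differed in the size of their falls was not tested. PCDHGB1 (chr5:141350102-141512979) was at 10.4, 9.88 and 9.71 CPM in sgControl and at 4.57, 4.15 and 4.18 CPM in sgRFX6 (log2 fold change -1.22, SE 0.23, edgeR adjusted p = 0.0222). PCDHGA4 (chr5:141355025-141512979) fell from 4.38, 3.48 and 2.94 CPM to 1.24, 0.44 and 0.908 CPM (log2 fold change -2.03, SE 0.41, edgeR adjusted p = 0.0293). PCDHGB3 (chr5:141370264-141512979) fell from 2.02, 2.19 and 1.77 CPM to 0.745, 0.628 and 0.318 CPM (log2 fold change -1.82, SE 0.40, edgeR adjusted p = 0.0431). All 3 were without overlap, but no library could be left out without losing the calls of PCDHGA4 (adjusted p 0.0543 to 0.0908) and PCDHGB3 (0.067 to 0.118). PCDHGB1 kept its call only without sgControl replicate 2 or sgRFX6 replicate 3.

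PCDHGC3 (chr5:141475947-141512979), one of the C-type genes that lie next to the constant exons, had the highest level of the clustered genes per kb of exon. It was at 39.9, 37.3 and 45.5 CPM in sgControl and at 26.8, 24.3 and 18.8 CPM in sgRFX6. The groups did not overlap, and the log2 fold change of -0.81 (SE 0.21) did not pass edgeR's test (adjusted p = 0.0823). It was called under 4 of 15 alternatives, among them DESeq2 (adjusted p = 0.0088), but under none of the 6 that leave out 1 library. Its share of all PCDHG counts was 45.0% to 56.3% in sgControl and 45.5% to 61.5% in sgRFX6. Among the others that did not pass, PCDHGA6 was at a log2 fold change of -1.61 (adjusted p = 0.0846), PCDHGA2 -1.32, PCDHGB5 -1.19, PCDHGA10 -0.94, PCDHGB2 -0.71 and PCDHGA1 -0.58, all without overlap between groups. PCDHGA5 varied most within groups, with 65, 74 and 22 counts against 60, 10 and 38. The 11 PCDHG genes below the filter summed to 77, 91 and 47 counts in sgControl and to 17, 21 and 63 in sgRFX6, where replicate 3 lay within the control range.

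The sum of all 22 PCDHG genes was 85.3, 83.0 and 80.8 CPM in sgControl and 49.1, 39.5 and 41.3 CPM in sgRFX6, or 52.2% of the control mean (48.7% to 54.5% with 1 library left out). By type, PCDHGA genes were left at 49.4%, PCDHGB genes at 45.7% and PCDHGC genes at 57.0% of the control mean. The ratio of PCDHB to PCDHG counts was 0.613 to 0.741 in sgControl and 0.374 to 0.431 in sgRFX6. Between 44.8% and 55.7% of the 75-base windows of the tested PCDHG genes other than PCDHGA6 (6.27%) occur in up to 21 other genes, and how reads of shared exons were counted is not given in the sources used here. Single PCDHG genes are uncertain to that extent. The windows came only from the longest transcript of each gene, so the low share of PCDHGA6 need not hold for its other transcripts.

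PCDHA genes were near the limit of detection. Only PCDHA4 and PCDHA5 of 12 were tested. The counts of PCDHA4 were 25, 29 and 22 in the controls against 13, 18 and 38, with a log2 fold change of 0.08 (SE 0.42, edgeR adjusted p = 0.964). PCDHA5 was at 0.434, 0.648 and 0.95 CPM against 0.546, 0.566 and 0.50 CPM (log2 fold change -0.34, SE 0.43, edgeR adjusted p = 0.803). The summed level was 3.08, 2.84 and 2.46 CPM against 2.04, 2.26 and 3.18 CPM, with overlapping groups. No difference in PCDHA passed the test.

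Genes around the arrays were mostly slightly lower. Among 30 tested genes outside the family on chromosome 5, from UBE2D2 before the arrays to SPRY4 beyond them, the median log2 fold change was -0.16, 21 were negative and 1 was called, SPRY4 (an inhibitor of receptor tyrosine kinase signalling) at -1.18 (edgeR adjusted p = 0.0217). TAF7, a subunit of the general transcription factor TFIID that lies between the PCDHB and PCDHG arrays, was at 61.1 CPM in sgControl and 48.6 CPM in sgRFX6 on average (log2 fold change -0.33, SE 0.18, edgeR adjusted p = 0.445), without overlap. In all, 5 of the 30 were lower without overlap (PFDN1, APBB3, TAF7, ARAP3 and SPRY4) and 0 higher, beside 11.2% and 12% of all genes tested. Negative and called genes made up 47.3% and 3.74% of all genes tested. Whether these neighbours differ from other genes was not tested. DIAPH1, an actin-nucleating formin just beyond the PCDHG array, had a log2 fold change of 0.13 (SE 0.20, adjusted p = 0.851), and ZMAT2, on the other side of PCDHA, of -0.15 (SE 0.18, adjusted p = 0.789).

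**Figure D3:**
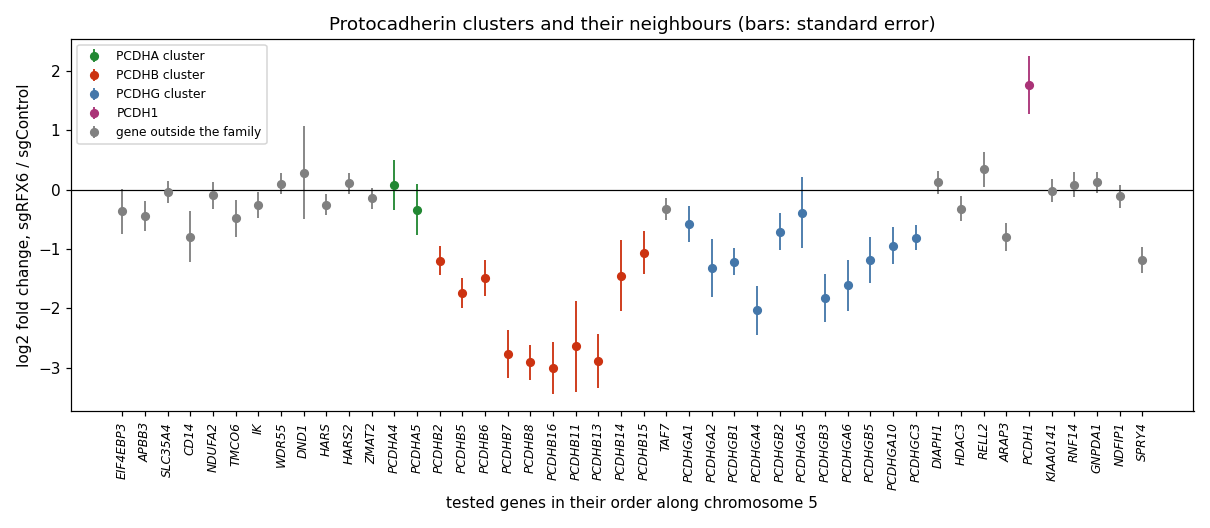
log2 fold change (sgRFX6 over sgControl, bars of 1 SE) of tested genes in their order along chromosome 5 around the protocadherin arrays. PCDHB and PCDHG genes lie below 0, with the lowest values from PCDHB7 to PCDHB13, while TAF7 between them is at -0.33 and PCDH1 beyond them at 1.76.

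RNA of genes known to control the choice of clustered protocadherin promoters was measured as well. The proteins CTCF and cohesin hold the promoters to a distant enhancer, and SMCHD1 and the DNA methyltransferases keep unused promoters silent. All 15 genes of this list were tested and none was called, with a median log2 fold change of -0.03 and 1 gene at an unadjusted p under 0.05. CTCF was at 75.4, 59.7 and 81.3 CPM in sgControl and at 69.9, 64.6 and 74.1 CPM in sgRFX6 (log2 fold change -0.05, SE 0.18, edgeR adjusted p = 0.943). Without overlap, 1 of the 15 was lower and 1 higher, beside 11.2% and 12% of all genes tested. The lower was DNMT3A, with a log2 fold change of -0.73 (SE 0.28, edgeR adjusted p = 0.231). The higher was SMC1A, at 0.35 (SE 0.21, edgeR adjusted p = 0.486). STAG2 and NIPBL were high in sgRFX6 replicate 3 (257 and 67.2 CPM) against no more than 90.9 and 24.1 CPM in all other libraries. SMC1A, SMC3, SMCHD1, RAD21, STAG1 and WAPL also had their highest level in that library. RAD21, the list's gene with the highest level per kb of exon, had a log2 fold change of 0.12 (SE 0.30, adjusted p = 0.912).

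Per kb of exon, the family was led by 3 solitary genes, CDH17, CDH2 and PCDH7, at 105, 16.2 and 14.8 CPM per kb averaged over both groups. They were followed by CDH24 at 8.64, PCDHGC3 at 5.91 and CDH1 at 5.53 CPM per kb. Together CDH17, PCDH7 and CDH2 held 73.1% to 74.4% of all member counts in sgControl and 78.9% to 83.9% in sgRFX6. Of the 28 solitary members 10 passed the filter, and the other 18 had at most 28 counts in any library.

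**Figure D4:**
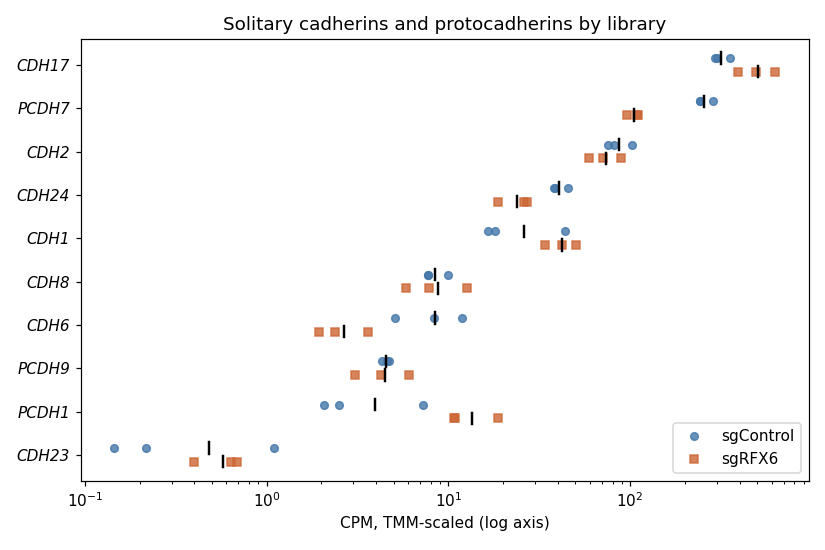
TMM-scaled CPM (log axis) of the 10 tested solitary cadherins and protocadherins in each library, with circles for sgControl, squares for sgRFX6 and a black tick at each group mean. PCDH7, CDH24 and CDH6 are lower and CDH17 and PCDH1 higher in sgRFX6 without overlap, of which PCDH7 alone passed the test.

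Among delta protocadherins, which are non-clustered relatives with conserved cytoplasmic motifs, PCDH7 was called lower. PCDH7 (chr4:30720415-31146805), an adhesion protein of the cell surface, was at 242, 286 and 242 CPM in sgControl and at 109, 96.0 and 111 CPM in sgRFX6. The 3 values of each group were close together, and the mean fell 2.44-fold (log2 fold change -1.29, SE 0.16, edgeR adjusted p = 0.00367). It was called under all 15 alternatives. PCDH9, known from the nervous system, was at 4.72, 4.62 and 4.32 CPM against 4.27, 3.08 and 6.09 CPM (log2 fold change -0.02, SE 0.31, edgeR adjusted p = 0.988).

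PCDH1 (chr5:141853111-141879246), a protocadherin known from airway epithelium, lies beyond the clusters on the same chromosome arm and had the opposite direction. It was at 2.51, 7.25 and 2.07 CPM in sgControl and at 18.8, 10.8 and 10.7 CPM in sgRFX6. The groups did not overlap, but sgControl replicate 2 was well above the other controls, and the log2 fold change of 1.76 (SE 0.49) did not pass edgeR's test (adjusted p = 0.1). Without that library it was 2.55 and passed (adjusted p = 0.0192), and DESeq2 called it over all libraries (adjusted p = 0.00689). PCDH1 was called under 5 of 15 alternatives, but in only 1 of the 6 fits with a library left out. The ratio of PCDH1 to PCDH7 counts was 0.00857 to 0.0254 in sgControl and 0.0967 to 0.173 in sgRFX6.

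Type I cadherins are the classical adherens junction proteins. CDH1 (chr16:68737225-68835548) was at 16.6, 43.8 and 18.0 CPM in sgControl and at 50.4, 33.8 and 42.2 CPM in sgRFX6. The groups overlapped through sgControl replicate 2, and the log2 fold change of 0.69 (SE 0.38) did not pass (edgeR adjusted p = 0.441, exact permutation p = 0.3). Without that library, which also had the most LGALS4 and CDX2, it was 1.28 (SE 0.25, edgeR adjusted p = 0.044). With any other library left out it was 0.45 to 0.81 and did not pass (edgeR adjusted p 0.372 to 0.777). CDH1 was called under 2 of 15 alternatives. CDH2 (chr18:27950966-28177446) was at 81.6, 103 and 75.9 CPM in sgControl and at 70.8, 59.7 and 89.4 CPM in sgRFX6, with overlapping groups (log2 fold change -0.24, SE 0.21, edgeR adjusted p = 0.668, exact permutation p = 0.4). The ratio of CDH1 to CDH2 counts was 0.203, 0.426 and 0.237 in sgControl and 0.711, 0.566 and 0.472 in sgRFX6. These ratios did not overlap, a description chosen after the values were seen and not tested. CDH3 (P-cadherin) had at most 3 counts in any library.

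Type II cadherins have a different adhesive pocket and are known mostly from the nervous system and kidney. CDH6 (chr5:31193750-31329146), or K-cadherin, was at 5.06, 11.9 and 8.38 CPM in sgControl and at 1.94, 2.39 and 3.63 CPM in sgRFX6. The groups did not overlap, and the log2 fold change of -1.67 (SE 0.39) missed the threshold (edgeR adjusted p = 0.0545). It was past the threshold under 8 of 15 alternatives. CDH24 (chr14:23047062-23057538) was at 38.5, 45.6 and 38.2 CPM against 26.0, 27.2 and 18.8 CPM, without overlap (log2 fold change -0.77, SE 0.22, edgeR adjusted p = 0.105). It was called lower under 4 of 15 alternatives, among them DESeq2 (adjusted p = 0.0212), but under none of the 6 that leave out 1 library. CDH8 was at 7.71, 9.96 and 7.73 CPM against 5.81, 7.79 and 12.6 CPM (log2 fold change 0.05, SE 0.32, edgeR adjusted p = 0.972), a sign that changed in other settings.

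CDH17 (chr8:94127171-94217303), or liver-intestine cadherin, lacks the catenin-binding tail of the classical cadherins and is normally abundant in intestinal epithelium. It was the family member with the highest level per kb, at 292, 356 and 302 CPM in sgControl and at 494, 390 and 630 CPM in sgRFX6. All 3 sgRFX6 libraries were above the controls, and the log2 fold change of 0.67 (SE 0.21) did not pass (edgeR adjusted p = 0.142). It passed under 2 of 15 alternatives, limma-voom (adjusted p = 0.00126) and GC trends removed (adjusted p = 0.0387). These 2 settings called 3998 and 1389 genes in all, against 480 in the main fit. In the 6 fits with 1 library left out, CDH17 was called 0 times. Of the 4 intestinal epithelial markers, LGALS4 (log2 fold change 0.11, SE 0.39) and CDX2 (-0.43, SE 0.45) overlapped between groups, both highest in sgControl replicate 2, where CDH17 also had its highest control value. VIL1 was lower without overlap (-0.59, SE 0.21, edgeR adjusted p = 0.183), and FABP1, below the filter, had 1, 0 and 0 counts against 6, 7 and 10. The part of these markers in the level of CDH17 was not tested. CDH17 held 34.8% to 36.3% of all member counts in sgControl and 56.5% to 63.7% in sgRFX6. CDH23, a component of the tip links of hair cells, had between 3 and 27 counts, with its highest value in sgControl replicate 2 (log2 fold change 0.21, SE 0.72, edgeR adjusted p = 0.944).

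Of the 45 members below the filter, counts ran from 0 to 28, and 16 members had no more than 3 counts in every library. Mean CPM was lower in sgRFX6 for all 6 untested PCDHB genes, all 11 untested PCDHG genes, 6 of 10 untested PCDHA genes and 6 of 18 untested solitary genes. PCDHB12, chosen after its values were seen, is an example, with 11, 19 and 7 counts in the controls against 1, 2 and 3 in the knockout libraries. Without overlap, 7 of the 45 were lower (3 PCDHB, 3 PCDHG and 1 solitary gene) and 3 higher (1 PCDHA and 2 solitary genes). The share of lower means over all genes below the filter was not computed, so these tallies are a description. At such counts no fold change is given.

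The partners of cadherins in the junction passed the test in no case. Of 17 catenin and junction plaque genes 14 were tested, with a median of -0.06 on the log2 scale. On that scale 6 of the 14 lay above 0 and 8 below. An unadjusted p under 0.05 was reached by 4 of the 14 (CTNND1, PKP3, NECTIN1 and NECTIN3), beside 15.6% of all genes. Without overlap, the same 4 of the 14 were higher and 0 lower, beside 12% and 11.2% of all genes. Of these, NECTIN3, a nectin of the same junctions, had the highest log2 fold change, 1.44 (SE 0.46, edgeR adjusted p = 0.153), and PKP3 (plakophilin) and NECTIN1 were at 0.71 and 0.54. CTNNB1 (beta-catenin) had a log2 fold change of -0.11 (SE 0.17, edgeR adjusted p = 0.855) and CTNNA1 (alpha-catenin) of -0.01 (SE 0.16, adjusted p = 0.991). CTNND1 (p120-catenin), which holds classical cadherins at the surface, was at 464, 510 and 434 CPM against 691, 590 and 578 CPM, without overlap and without passing (log2 fold change 0.40, SE 0.17, edgeR adjusted p = 0.286). JUP (plakoglobin) had the highest level of the list per kb, at a log2 fold change of -0.38 (SE 0.26, adjusted p = 0.567).

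Of the desmosomal cadherins DSC2 and DSG2 were tested and neither was called, with log2 fold changes of 0.97 (SE 0.29, edgeR adjusted p = 0.118) and 0.65 (SE 0.26, adjusted p = 0.26). Of 17 other genes of the cadherin superfamily 10 were tested and none called, with a median log2 fold change of 0.09. FAT1, a giant atypical cadherin and the highest of that list, had a log2 fold change of 0.14 (SE 0.18, adjusted p = 0.805), DCHS2 of 1.77 (SE 0.58, adjusted p = 0.159) and the planar polarity receptor CELSR2 of -0.75 (SE 0.22, adjusted p = 0.117). A list of CDH1 repressors, markers of epithelial-mesenchymal transition and epithelial regulators had 6 tested genes and no call. Its median of -0.08 mixes roles, since it includes GRHL1, an activator of epithelial genes, at -0.09 (SE 0.35, adjusted p = 0.95). SNAI1 (Snail), a repressor of CDH1, was at 24.6, 42.3 and 24.1 CPM against 20.9, 15.96 and 13.1 CPM, without overlap (log2 fold change -0.87, SE 0.30, edgeR adjusted p = 0.176), and FN1 (fibronectin), the highest of the list, had a log2 fold change of -0.07 (SE 0.27, adjusted p = 0.95). All 7 proteases that cleave cadherins, ADAM10, ADAM17 and the subunits of gamma-secretase, were tested and none was called (median 0.01), with APH1A the highest per kb at a log2 fold change of 0.04 (SE 0.22, adjusted p = 0.967).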

How the data were processed

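RNA of Hep3B cells was isolated with Trizol and sequenced on an Illumina instrument in 3 sgControl and 3 sgRFX6 libraries. The authors deposited 1 table of raw counts, 1 column per library, with no normalization. The submitters' processing notes name the builds GRCh38 and hg38, and the aligner, the counting program, the annotation and any use of strand are not given in the sources used here. Columns were assigned to samples by their names and numbers. One row without a gene name, at most 9.17e-05% of a library, was left out. Counts were tested in edgeR 4.0.16 (R 4.3.3) with filterByExpr (minimum count 10, minimum total 15), TMM and the quasi-likelihood test over the 6 libraries with group as the only term. Adjustment over 12839 genes followed Benjamini and Hochberg, with calls at adjusted p under 0.05. The biological coefficient of variation, shared by all genes, was 0.269. Tested on simulated data with changed genes, this fit recovered 53.6% of 196 changed genes, with 7.08% of calls false (12752 genes tested). Intervals for single counts are not given, and the floor of 3 counts covers counting error only.

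Positions, exon lengths, GC content and shared 75-base windows were taken from the GENCODE annotation of GRCh38, in which all 78 members were found by name or synonym. Promoters came from RefSeq (GRCh38.p14). Replicate libraries differed by more than sampling noise (chi-square per degree of freedom 16.9 to 122). Replicate numbers did not pair the libraries, since deviations of same-numbered libraries correlated at -0.41, 0.17 and -0.087. Named genes were RFX6, every called member, all other tested members, CDH1 and CDH2 in full, the 3 members with the highest CPM per kb, and called or highest genes of the other lists, beside genes such as CTNNB1 and TAF7 that were chosen after values were seen. The members and lists were chosen with earlier results of these data known. Alternatives were RLE and library-size scaling, DESeq2 1.42.0, voom with sample quality weights (limma 3.58.1), no filter, a minimum count of 30, a replicate block, GC trends removed, both together, and each library left out.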

Additional observations from a re-analysis of the deposited data

How the results depend on the processing

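Of 488 log2 fold changes of tested members under 15 alternatives, 412 kept direction and side of the threshold, 25 lost and 34 gained a call, and 17 changed sign. The count of 11 members called, all lower, was 23 with limma-voom and sample quality weights (20 lower and 3 higher, PCDH1, CDH1 and CDH17), 17 with GC trends removed (15 lower and 2 higher, PCDH1 and CDH17) and 16 with DESeq2 (15 lower and 1 higher, PCDH1), and it ran from 6 to 10 with 1 library left out. For the clustered protocadherins the count of 10 was 17 with limma-voom and ran from 5 to 8 with 1 library left out. The 480 genes called became 895 with DESeq2, 3998 with limma-voom and 1389 with GC trends removed, and 212 to 718 with 1 library left out, lowest without sgControl replicate 3 and highest without sgRFX6 replicate 3. RLE and library-size scaling left the same 11 members called. The numbers do not pair the libraries, and with the replicate block 14 members, 11 clustered protocadherins and 648 genes were called. The sign of CDH8 changed to -0.31 with limma-voom, -0.0159 with the replicate block, -0.0806 with GC trends removed and -0.0568 with GC trends and the replicate block. The sign of PCDHA4 changed to -0.43, -0.0377 and -0.0501 with limma-voom, GC trends removed and GC trends with the replicate block, and that of PCDHGA5 to 0.67 with limma-voom. With 1 library left out, CDH23 ran from -0.20 to 1.62, CDH8 from -0.31 to 0.27, PCDH9 from -0.30 to 0.18, PCDHA4 from -0.33 to 0.37 and PCDHA5 from -0.57 to 0.0031, none of them called. The cause of these changes was not tested. Whether depth limits the calls of genes with few counts was not tested.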
